A study of Mus musculus with 4 samples.

Results

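Genes that mark undifferentiated mesenchyme and tendon were followed in cultured rib chondrocytes of mice that lack the SUMO protease SENP6 in the skeletal mesenchyme and of controls that keep it. They were taken from the files by their symbols: the transcription factors Twist1, Twist2, Prrx1 and Prrx2, the growth factor receptors Pdgfra and Pdgfrb, the surface markers Thy1 and Ly6a, and the tendon genes Scx and Tnmd. All 10 were found by their symbol among the 18298 genes that any of the samples had reads for, and all 10 were among the 14123 genes that reached 10 counts in at least 2 samples and were tested. The mutant group held 2 samples of the genotype Dermo1-Cre;Senp6f/f, and the control group, labelled WT, held 2 samples of Senp6f/f without Cre. Both groups thus carried the floxed Senp6 alleles on a C57BL/6 background, and both were primary rib chondrocytes of E18.5 embryos at passage 1. The rib cartilage was cleaned of soft and bony tissue and dissociated with pronase and collagenase before plating. Whether a sample pooled several embryos is not given in the sources used here, and embryos were not separated by sex.

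Dermo1-Cre is a recombinase expressed from the Twist2 locus, which was formerly called Dermo1, so that a Twist2 allele of the mutants carries Cre and those of the controls do not. TWIST1 and TWIST2 are basic helix-loop-helix factors that bind E-box DNA as dimers and hold mesenchymal cells in an undifferentiated state. PRRX1 and PRRX2 are paired-type homeodomain factors of the limb, face and body wall mesenchyme. PDGFRA and PDGFRB are the receptor tyrosine kinases for platelet-derived growth factors, and mark connective tissue progenitors and pericytes, respectively, although many cultured stromal cells carry both. THY1 (CD90) and LY6A (SCA-1) are surface proteins held by a lipid anchor, by which mesenchymal stromal cells are commonly sorted. SCX is the transcription factor of tendon progenitors, and TNMD (tenomodulin) is a membrane protein of maturing tendon cells.

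Reads counted on the tested genes numbered 21007449 and 26130503 in the controls and 30983806 and 28222961 in the mutants, which was at least 99.91% of all counted reads in each sample. Levels are given as RPKM, the read count scaled by gene length and by the depth of the sample, and values of a group are always given with replicate 1 first. Senp6 itself had an RPKM of 10.84 and 18.02 in the controls and of 12.02 and 8.07 in the mutants, so the groups overlapped, and the count over the whole gene does not separate the deleted exons. Xist reads numbered 11354 in mutant replicate 2 but 2 to 5 in the other samples, so this sample held female cells and the mutant samples differed in sex. Of 16 chondrocyte markers, all were detected in every sample. Their summed RPKM was 1082 and 1060 in the controls and 526 and 665 in the mutants, and 14 of them were lower in both mutants than in both controls, as were 22.8% of all tested genes. Col2a1, the main cartilage collagen, had an RPKM of 609 and 659 in the controls and of 333.5 and 445 in the mutants (log2 fold change -0.75, standard error 0.164, edgeR adjusted p = 0.114). The labelled cell type was therefore present in both groups, but with lower markers in the mutants. Because these were bulk samples, fewer cells of a type and less RNA per cell cannot be told apart.

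The regulatory sequence that matters to the design is that of Twist2, since it drives Cre in the mutants. The window from 250 bases before to 50 bases after its start, as RefSeq gives it on GRCm38.p6 (chr1:91801211-91801510, forward strand), is shown first. The same window of Pdgfra (chr5:75152001-75152300, forward strand) is shown because it was the only member window with an E-box (CANNTG, which reads the same on both strands as a pattern), and its capitals mark the E-boxes.
Twist2: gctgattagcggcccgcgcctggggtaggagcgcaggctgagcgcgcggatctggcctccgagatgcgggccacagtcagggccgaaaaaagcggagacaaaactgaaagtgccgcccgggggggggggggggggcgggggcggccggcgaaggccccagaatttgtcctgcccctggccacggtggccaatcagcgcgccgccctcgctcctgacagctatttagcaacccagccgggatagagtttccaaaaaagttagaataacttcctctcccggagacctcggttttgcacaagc
Pdgfra: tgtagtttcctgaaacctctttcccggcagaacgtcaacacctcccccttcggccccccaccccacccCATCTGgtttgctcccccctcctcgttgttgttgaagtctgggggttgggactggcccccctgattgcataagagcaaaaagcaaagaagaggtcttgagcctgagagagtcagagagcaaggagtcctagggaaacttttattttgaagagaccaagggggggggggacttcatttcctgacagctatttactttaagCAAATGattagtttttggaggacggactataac

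Windows were matched for 6 of the 10 genes, namely Twist1, Twist2, Prrx1, Prrx2, Pdgfra and Tnmd. The Pdgfra window held 2 E-boxes and the other 5 held none, whereas 72.3% of the 32851 RefSeq windows of 300 bases held at least 1. These matches describe letters only and show no binding.

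Several of the genes have close relatives or overlapping neighbours, so it was asked how much of each could be confused during counting. The measure was the share of the 50-base words in the gene's protein-coding transcripts of GENCODE vM21 that also occur, on either strand, in a transcript of another gene. The annotation behind the deposited counts is not given, so shared words may lie outside the counted sequence. For Twist2 the deposited gene length was 1312 bases, against 3125 words in the GENCODE transcripts. It was 0% for Twist1, Prrx2, Pdgfrb, Thy1, Scx and Tnmd, 0.192% for Prrx1, 5.19% for Pdgfra, 19.0% for Ly6a and 45.7% for Twist2. For Twist2 all 1428 shared words lay in Gm29100, an antisense RNA gene that overlaps Twist2 by 1477 bases on the opposite strand. The library protocol names no strand marking. Where the counted sequence includes this overlap, reads of Twist2 and of this antisense gene therefore cannot be told apart. Scx overlaps Bop1 on the opposite strand by 2007 bases, but no word of its transcript occurs in a transcript of Bop1. For Ly6a, 195 of the 246 shared words lay in Ly6c1, its neighbour in the Ly6 family. The longest run that the coding sequences of Ly6a and Ly6c1 share has 45 bases, against 23 bases for Twist1 and Twist2, and both runs are given in capitals with 20 bases on either side.
Twist1: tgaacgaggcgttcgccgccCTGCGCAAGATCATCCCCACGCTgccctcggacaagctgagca
Twist2: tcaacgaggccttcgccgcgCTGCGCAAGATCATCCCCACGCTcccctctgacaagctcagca
Ly6a: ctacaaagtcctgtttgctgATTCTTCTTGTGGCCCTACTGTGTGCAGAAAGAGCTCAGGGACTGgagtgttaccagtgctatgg
Ly6c1: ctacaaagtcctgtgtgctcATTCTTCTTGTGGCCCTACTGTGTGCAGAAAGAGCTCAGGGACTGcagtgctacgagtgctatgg
The first run begins at base 403 of the Twist1 coding sequence, within the helix-loop-helix region, and the second at base 37 of the Ly6a coding sequence, largely in the part for the signal peptide.

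By level, the surface markers led and Twist2 came last in both groups. The mean RPKM of the controls ran in the order Thy1 280, Ly6a 155, Prrx2 147, Pdgfra 110, Pdgfrb 101, Prrx1 97.4, Twist1 52.2, Tnmd 39.6, Scx 14.5 and Twist2 10.1. In this order the control samples of Ly6a overlapped those of Prrx2, those of Pdgfra overlapped those of Pdgfrb, those of Twist1 overlapped those of Tnmd, and those of Scx overlapped those of Twist2, so the order within these pairs was not resolved. The control samples of Prrx1 also lay inside the range of those of Pdgfra, so their order was not resolved either. In the mutants the order was the same except that Prrx1, with a mean RPKM of 114, stood directly below Prrx2, with 119. The mutant samples of these genes overlapped, as did those of Pdgfra and Pdgfrb. In every sample Prrx1, Prrx2, Pdgfra, Pdgfrb, Thy1 and Ly6a lay within the top 5.04% of the genes with a read.

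**Figure D1:**
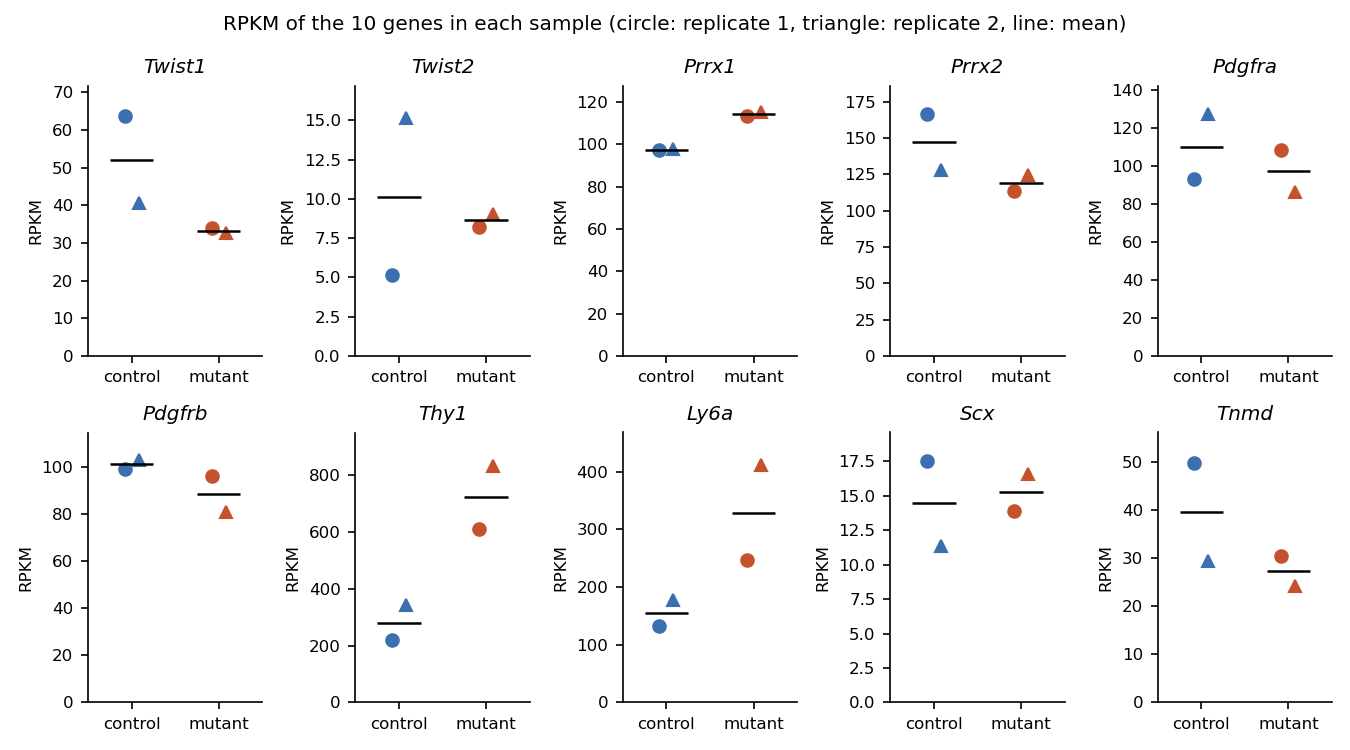
Each panel plots the deposited RPKM of a gene (vertical axis, from 0) in the control (blue) and mutant (red) samples, with replicate 1 as a circle, replicate 2 as a triangle and the group mean as a line. Both mutants lie above both controls for Thy1, Ly6a and Prrx1, by the widest margin for Thy1. The control samples of Twist2 lie on either side of both mutants.

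The comparison of mutant with control chondrocytes asked whether the loss of Senp6 shifts these identity genes. The surface markers stood apart: Thy1 was 2.50-fold and Ly6a 2.06-fold higher in the mutants. The transcription factors and PDGF receptors differed by less, with Twist1 at 0.618 of the control level and the others between 0.784 and 1.14. The tendon genes diverged, with Scx at 1.02 and Tnmd at 0.671 of the control level. No member passed an adjusted p of 0.05 in the quasi-likelihood test of edgeR with Benjamini-Hochberg adjustment over all 14123 genes, and 0% of all genes did. At an unadjusted p under 0.05, 2 members (Thy1 and Ly6a) were higher, against 9.29% of all genes, and 1 (Twist1) was lower, against 6.28% of all genes. These shares stand for 1312 genes higher and 887 lower. Both mutants were above both controls for 3 members (Thy1, Ly6a and Prrx1) and below them for 3 (Twist1, Prrx2 and Pdgfrb), and 4 overlapped. Over all genes 25.4% were above and 22.8% below in this way, so these counts were close to the background. The median log2 fold change of the members was -0.22, beside 0.01 over all genes. For any 1 gene, 2 against 2 samples allow an exact permutation p of 0.333 at the lowest. The edgeR values therefore borrow their error from other genes, and, as nothing in the labels ties the samples to separate litters, they measure only the spread between these samples.

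**Figure D2:**
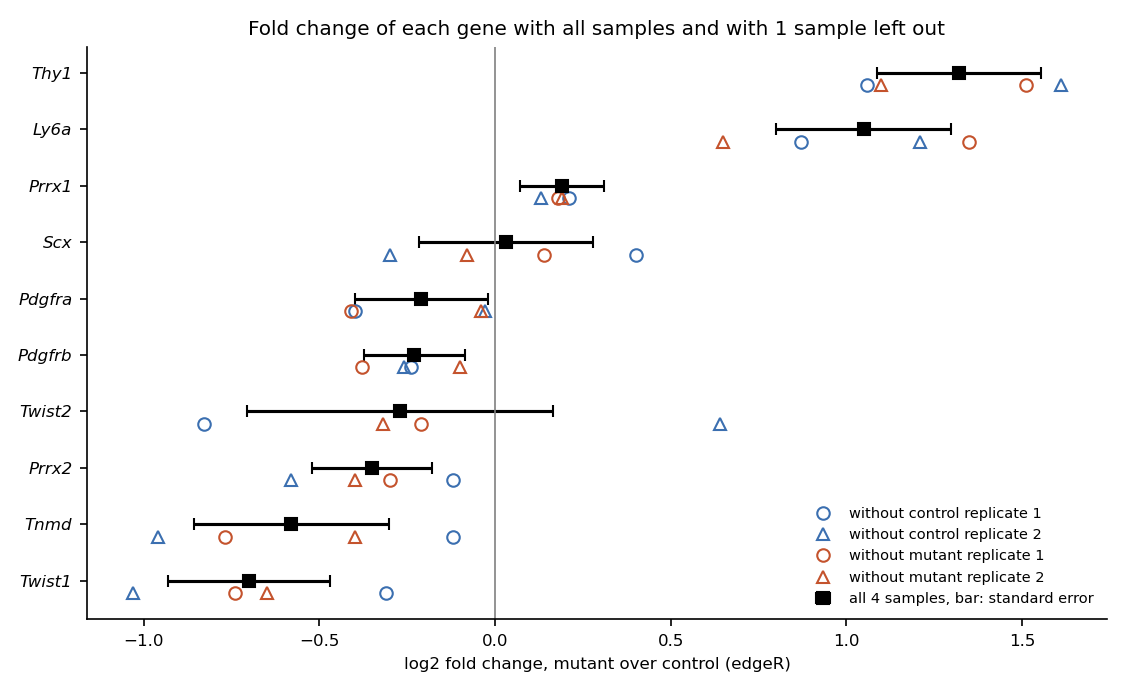
The horizontal axis is the log2 fold change of mutant over control from edgeR, the black squares with standard error bars use all 4 samples, and the open symbols leave out 1 sample each. Thy1 and Ly6a stay at or above 0.65 with any sample left out, whereas Twist2 and Scx lie on both sides of 0.

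Twist1, which in mice is required for cranial neural tube closure and mesenchyme survival, was read 2227 and 1772 times in the controls and 1751 and 1537 times in the mutants. This gave an RPKM of 63.6 and 40.7 in the controls and of 33.9 and 32.7 in the mutants. Both mutants were below both controls and close to each other, while control replicate 1 was 1.56 times control replicate 2. The log2 fold change was -0.70 (standard error, SE, 0.230, edgeR adjusted p = 0.222), and 95.1% of the tested genes had a higher one. Leaving out control replicate 1 gave -0.31 and leaving out control replicate 2 gave -1.03, each with 1 control left.

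Twist2 had the lowest mean of the genes in both groups and was the least even among the controls. Its reads numbered 142 and 519 in the controls and 333 and 336 in the mutants, and its RPKM was 5.15 and 15.1 in the controls and 8.19 and 9.07 in the mutants. The mutants thus fell between the controls, which differed by 2.94-fold. The log2 fold change was -0.27 (SE 0.436, 95% interval -1.32 to 0.78, edgeR adjusted p = 0.822). The sign depended on the control used, with -0.83 without control replicate 1 and 0.64 without control replicate 2. Reads covered 95.4% to 100% of the gene length in all samples, the mutants included. The count does not separate the Cre-bearing allele from the other, so an effect of that allele and an effect of the loss of Senp6 cannot be told apart.

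The balance of the 2 Twist genes differed from sample to sample. On the RPKM scale Twist1 was 12.4 times Twist2 in control replicate 1 and 2.69 times in control replicate 2, against 4.14 and 3.6 times in the mutants. The mutant ratios therefore lay inside the range of the controls.

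Prrx1 had the smallest spread of the members. Its RPKM was 97.2 and 97.6 in the controls and 113 and 115 in the mutants, from 10175 to 17493 reads, so both mutants were above both controls. The log2 fold change was 0.19 (SE 0.120, 95% interval -0.10 to 0.47, edgeR adjusted p = 0.528). Its relative Prrx2 had an RPKM of 166 and 128 in the controls and of 114 and 125 in the mutants, so both mutants were below both controls, the nearest pair by a narrow margin. The log2 fold change of Prrx2 was -0.35 (SE 0.170, edgeR adjusted p = 0.394). Leaving out control replicate 1 gave -0.12 and leaving out control replicate 2 gave -0.58. The ratio of Prrx1 to Prrx2 was 0.584 and 0.762 in the controls and 0.997 and 0.922 in the mutants, and the groups did not overlap. How often ratios of other gene pairs separate in this way was not computed. With 2 against 2 samples the exact permutation p is 0.333 at the lowest, so the separation is only described.

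**Figure D3:**
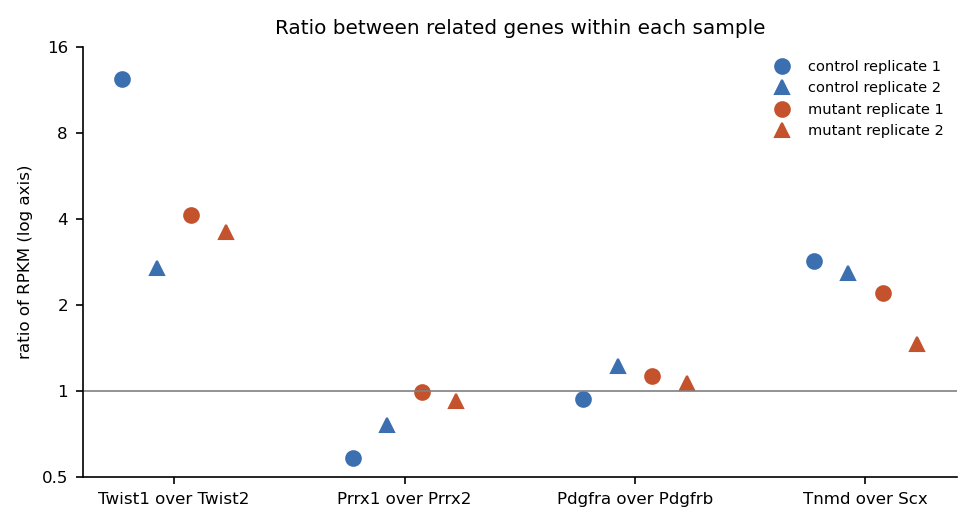
The ratio of the RPKM of related genes (log axis) is plotted within each sample, with controls in blue, mutants in red, replicate 1 as a circle and replicate 2 as a triangle. The ratio of Prrx1 to Prrx2 is higher and that of Tnmd to Scx lower in both mutants than in both controls, while the ratios of the Twist genes and of the PDGF receptors overlap between the groups. How often ratios of other gene pairs separate in this way was not computed.

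The PDGF receptors had similar levels, and their mutant values lay near or within those of the controls. Pdgfra had an RPKM of 93.2 and 127 in the controls and of 108 and 86.3 in the mutants, with the groups interleaved. Its log2 fold change was -0.21 (SE 0.190, 95% interval -0.67 to 0.24, edgeR adjusted p = 0.650). Pdgfrb had an RPKM of 99.2 and 103 in the controls and of 95.9 and 80.9 in the mutants, so both mutants were lower, mutant replicate 1 only slightly. Its log2 fold change was -0.23 (SE 0.143, 95% interval -0.58 to 0.11, edgeR adjusted p = 0.501). The ratio of Pdgfra to Pdgfrb ranged from 0.940 to 1.23 over the 4 samples, and the mutants were inside the range of the controls.

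Thy1 showed the largest difference among the members. It had 8085 and 15631 reads in the controls and 33079 and 41182 in the mutants, and its RPKM was 219.5 and 341 in the controls and 609 and 832 in the mutants. The lower mutant was well above the higher control. In the mutants Thy1 was among the most abundant transcripts, with 0.518% and 0.360% of the genes with a read above it, against 1.57% and 0.944% in the controls. The log2 fold change was 1.32 (SE 0.234, 95% interval 0.76 to 1.88, edgeR adjusted p = 0.0885), which missed the threshold. A higher fold was found for 3.68% of the tested genes, and 1.52% of the tested genes were higher in the mutant with an edgeR adjusted p under 0.1, Thy1 among them, while 0.496% were lower. DESeq2 gave Thy1 an adjusted p of 2.75e-06, and it placed 3.07% of the tested genes higher and 1.86% lower. Without any 1 sample the log2 fold change of Thy1 stayed between 1.06 and 1.61, with an edgeR adjusted p between 0.000273 and 0.0179. These fits hold 1 sample in a group, which is assumed to vary like the other group. Against Pdgfra in the same sample, Thy1 stood at 2.35 and 2.69 times in the controls and at 5.63 and 9.63 times in the mutants, on the RPKM scale.

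Ly6a was higher in the mutants too. Its reads numbered 2793 and 4633 in the controls and 7667 and 11653 in the mutants, and its RPKM was 133 and 177 in the controls and 247 and 412 in the mutants. Both mutants were above both controls, and mutant replicate 2 was 1.67 times mutant replicate 1. The log2 fold change was 1.05 (SE 0.249, 95% interval 0.45 to 1.64, edgeR adjusted p = 0.126), and DESeq2 gave an adjusted p of 0.00163. Without mutant replicate 2, the sample with Xist reads, the log2 fold change was 0.65, and without mutant replicate 1 it was 1.35. The deposited coverage of the gene length was 86.3% and 89.3% in the controls and 91.6% and 100% in the mutants.

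Since Ly6a shares sequence with its family, the Ly6 list was read beside it. Of 10 other Ly6 genes 9 had a row and 2 were tested, and both mutants were above both controls for both of them, Ly6c1 and Ly6e. Ly6c1, the paralogue with the shared run, had an RPKM of 28.7 and 33.2 in the controls and of 85.5 and 148 in the mutants, and its log2 fold change was 1.87 (SE 0.254, edgeR adjusted p = 0.0789, DESeq2 adjusted p = 5.86e-10). Ly6e, which shares no coding run over 9 bases with Ly6a, had an RPKM of 198.5 and 219.9 in the controls and of 258 and 259 in the mutants (log2 fold change 0.26, SE 0.122, edgeR adjusted p = 0.368). How the authors assigned reads from the shared run is not given in the sources used here.

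Ly6a is also known to be raised by interferon, and 13 interferon response genes were therefore summarised. Their summed RPKM was 193 and 121 in the controls and 176 and 296 in the mutants. Mutant replicate 2 was highest, as for Ly6a, but control replicate 1 was the higher control here and control replicate 2 for Ly6a. All 13 had a positive log2 fold change, as had 7262 of the 14123 tested genes. Both mutants were above both controls for 3 of the 13, a share near the 25.4% of all genes, none passed the threshold in edgeR or DESeq2, and the median log2 fold change of 0.63 became 0.10 without mutant replicate 2. The most abundant of them, Bst2 and Isg15, had log2 fold changes of 0.63 (edgeR adjusted p = 0.509) and 0.65 (edgeR adjusted p = 0.477). The largest were those of Rsad2, 1.29 (edgeR adjusted p = 0.469), and Ifit3, 1.07 (edgeR adjusted p = 0.426), and both genes were highest in mutant replicate 2. The part of the interferon genes in the Ly6a values was not tested.

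The tendon genes gave no common direction. Scx had 338 to 533 reads per sample and an RPKM of 17.5 and 11.4 in the controls and of 13.9 and 16.6 in the mutants. The mutants lay between the controls, and the log2 fold change was 0.03 (SE 0.248, 95% interval -0.56 to 0.63, edgeR adjusted p = 0.966). Tnmd, which acts downstream of Scx in tendon, had an RPKM of 49.8 and 29.5 in the controls and of 30.6 and 24.3 in the mutants, with control replicate 1 above the other samples. Its log2 fold change was -0.58 (SE 0.277, edgeR adjusted p = 0.390). Leaving out control replicate 1 gave -0.12 and leaving out control replicate 2 gave -0.96. The ratio of Tnmd to Scx was 2.85 and 2.59 in the controls and 2.20 and 1.46 in the mutants.

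Genes related to the members were described as lists by their counts, to be read against the 25.4% of all tested genes with both mutants above both controls and the 22.8% with both below. None passed the adjusted threshold in edgeR. At a DESeq2 adjusted p under 0.05, 3.07% of all tested genes were higher and 1.86% lower. Beside this, DESeq2 placed 5 of the 30 tested progenitor and stromal genes higher and 5 lower. Of the 7 PDGF genes it placed 1 (Nrp1) higher and 1 (Pdgfrl) lower. It also placed 1 of 19 tendon genes (Col14a1) and 1 of 12 Twist partners (Snai2) lower. The list of 20 other tendon genes had 19 tested, of which 8 were below and 5 above the controls in both mutants, with a median log2 fold change of -0.44, which became 0.08 without control replicate 1. Its most abundant genes were the type I collagens, which are not particular to tendon, with log2 fold changes of -0.63 for Col1a1 and -0.61 for Col1a2 (edgeR adjusted p = 0.332 and 0.333). Col1a1 had an RPKM of 7253 and 4961 in the controls and of 4828 and 3311 in the mutants. The largest differences of the list were in matrix genes of fibrous tissue, the proteoglycan gene Dcn (log2 fold change -1.41, standard error 0.392, edgeR adjusted p = 0.167) and the collagen gene Col14a1 (log2 fold change -1.18, standard error 0.302, edgeR adjusted p = 0.144). The 5 tendon genes above the controls, beside the 8 below, were Mkx, Egr1, Egr2, Tnc and Tgfb3. Their log2 fold changes were 0.81, 0.35, 1.05, 0.46 and 0.37 (edgeR adjusted p = 0.24, 0.293, 0.184, 0.202 and 0.251).

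The list of 31 progenitor and stromal genes had 30 tested, of which 11 were above and 9 below the controls in both mutants, with a median log2 fold change of -0.05, which became 0.16 without control replicate 1. Mcam (CD146), an adhesion molecule of pericytes and skeletal stromal cells, had an RPKM of 4.92 and 9.50 in the controls and of 27.6 and 33.1 in the mutants (log2 fold change 2.03, standard error 0.286, edgeR adjusted p = 0.0789). Dpt (dermatopontin), a matrix gene of fibroblasts, had an RPKM of 14.8 and 6.69 in the controls and of 3.04 and 2.03 in the mutants (log2 fold change -2.13, standard error 0.430, edgeR adjusted p = 0.0999). Vim, an intermediate filament gene of mesenchymal cells, and Postn, a matricellular gene, were the most abundant of the list and had log2 fold changes of -0.12 and 0.08.

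The 7 genes of PDGF ligands and their processing were all tested, and 6 were above and 1 below the controls in both mutants, with a median log2 fold change of 0.57, which became 0.29 without mutant replicate 2. Nrp1, a co-receptor for PDGF and VEGF, had an RPKM of 23.5 and 28.0 in the controls and of 39.95 and 38.47 in the mutants (log2 fold change 0.57, standard error 0.132, edgeR adjusted p = 0.123). Pdgfrl, which encodes a receptor-like protein, had an RPKM of 9.79 and 5.08 in the controls and of 3.55 and 3.07 in the mutants (log2 fold change -1.21, standard error 0.350, edgeR adjusted p = 0.179). Plat, whose protease activates PDGF-C and was the most abundant of the list, had a log2 fold change of 0.18. Pdgfb had the largest fold of the list (log2 fold change 1.85, standard error 1.03, edgeR adjusted p = 0.457), with both mutants above both controls. It rested on few reads, 17 and 0 in the controls and 44 and 41 in the mutants, and its RPKM was under 0.5 in every sample.

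Of 13 partners and antagonists of Twist factors 12 were tested, 1 was above and 1 below the controls in both mutants, and the median log2 fold change was -0.07, which became -0.29 without control replicate 2. The gene below was Snai2, a zinc finger repressor of the Snail family, with an RPKM of 36.3 and 24.3 in the controls and of 19.6 and 17.8 in the mutants (log2 fold change -0.74, standard error 0.221, edgeR adjusted p = 0.187). Id3, an inhibitor of helix-loop-helix dimers, and Snai1 were the most abundant, with log2 fold changes of -0.01 and -0.13, and Id4 had one of -0.66 (edgeR adjusted p = 0.571).

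**Figure D4:**
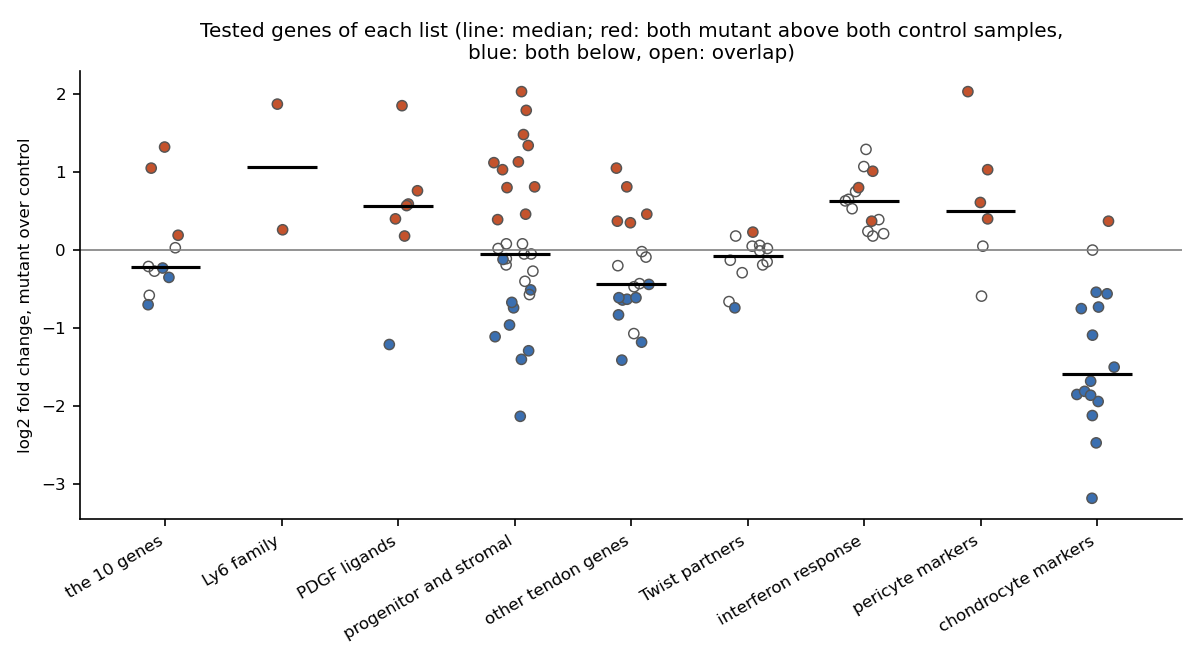
Each point is a tested gene of the list named on the horizontal axis, the vertical axis is its log2 fold change of mutant over control, and the line is the list median. Red points are genes with both mutants above both controls, blue points the reverse and open points overlap. The 10 members spread over both signs, as do the progenitor and tendon lists, while 14 of the 16 chondrocyte markers lie below.

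Markers of other cells that carry these genes were measured in the same samples. T cells carry Thy1, and their 5 markers had a summed RPKM of 0.762 to 1.19, most of it from Lck. Cd3e and Cd3g had at most 1 read in a sample, and Cd2 had no row. Endothelial cells carry Ly6a, and their 7 markers had a summed RPKM of 6.57 and 5.47 in the controls and of 4.89 and 6.63 in the mutants, which overlapped, most of it from Egfl7. Of the 5 tested endothelial markers Kdr was above both controls in both mutants (log2 fold change 1.32, edgeR adjusted p = 0.201), Tek was below (log2 fold change -1.74, edgeR adjusted p = 0.143), and the median log2 fold change was -0.88, which became 0.03 without control replicate 1. Pecam1 and Cdh5 had an RPKM of at most 0.380 in any sample. Macrophage and blood markers, 9 in number, had a summed RPKM of 17.4 and 15.2 in the controls and of 6.84 and 10.8 in the mutants. The 6 pericyte markers had a summed RPKM of 35.4 and 39.7 in the controls and of 64.1 and 75.3 in the mutants, and Mcam made up most of the difference. The 10 skeletal muscle markers had a summed RPKM of 86.5 and 30.0 in the controls and of 162 and 182 in the mutants. Of the 8 tested muscle markers 7 were above both controls in both mutants, against 25.4% of all tested genes. Their median log2 fold change was 1.57. The 6 Schwann and neural markers had 46.2 and 60.3 in the controls and 77.0 and 63.1 in the mutants, most of it from Tubb3. Of the 5 tested ones 3 were above both controls in both mutants and 2 overlapped. Sox10 had the largest fold of them (log2 fold change 2.27, SE 0.423, edgeR adjusted p = 0.0917), with an RPKM of 0.368 and 0.240 in the controls and of 1.11 and 1.91 in the mutants. The 8 osteoblast markers had 496.5 and 551 in the controls and 511 and 654 in the mutants, most of it from Spp1. The other 4 of the 5 tested osteoblast markers were below both controls in both mutants, as were 22.8% of all tested genes. The list median was -1.11 on the log2 scale. Alpl, an alkaline phosphatase gene, had an RPKM of 90.1 and 45.7 in the controls and of 11.6 and 22.4 in the mutants (log2 fold change -2.06, SE 0.411, edgeR adjusted p = 0.0985), and the log2 fold changes of Ibsp and Sp7 were -2.48 (edgeR adjusted p = 0.263) and -1.11 (edgeR adjusted p = 0.218). The part of any of these cell types, or of chondrocytes, in the member values was not tested.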

How the data were processed

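RNA of the cultured chondrocytes was sequenced by a service after poly(A) selection. Per gene and sample, the authors deposited read counts, not normalized, RPKM, computed by the authors from these counts, and the covered share of the gene in percent. The submitters' processing notes name mm9 and SAMtools. Aligner, counting tool and annotation are not given in the sources used here. Genes absent from a sample's file were set to a count of 0. Testing used edgeR 4.0.16 in R 4.3.3 (quasi-likelihood, robust, TMM factors 0.966 to 1.03, at least 10 counts in at least 2 samples, Benjamini-Hochberg adjustment). An SE is the log2 fold change over the root of F. In the shallowest sample 10 counts over 2 kb equal an RPKM of 0.238. Replicates of a group differed beyond sampling noise (chi-square per degree of freedom 48.6 for controls, 23.7 for mutants). Alternatives were DESeq2 1.42.0, RLE normalization, other filters, limma 3.58.1 on log2(RPKM + 1) or log2(RPKM + 0.1), a replicate block, and omission of each sample. The fitting script was tested on simulated data. All members are named. Of each related list, at least the 2 most abundant tested genes and the 2 of largest fold are named, and marker lists are given mainly as summed levels. Members and lists were chosen with earlier results of these data known. Sequences are from RefSeq (GRCm38.p6) and GENCODE vM21.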

Additional observations from a re-analysis of the deposited data

How the results depend on the processing

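How many genes passed the adjusted threshold of 0.05 depended on the processing. Against 0 in the edgeR test, DESeq2 gave 434 higher and 263 lower, no filter on low counts 225 and 61, and leaving out 1 sample 96 to 1331 higher and 47 to 1492 lower, the most without control replicate 2. RLE normalization, the stricter filter and limma gave 0. With the replicate number as a block, 84 were higher and 33 lower. The differences between replicates of the groups had a correlation of -0.043 across genes. As each group gives only 1 such difference, this cannot settle whether same-numbered samples were paired, and the labels do not say. Of 110 member values under the alternatives, 94 kept their sign and their side of the threshold, 13 kept their sign and passed it, and 3 changed sign. The 13 were Thy1 in 7 fits (edgeR adjusted p = 0.0365 with the block), Ly6a with DESeq2 and without mutant replicate 1, Twist2 without control replicate 1, and Twist1, Prrx2 and Tnmd without control replicate 2. Sign changes arose only on leaving out a sample, for Twist2 (log2 fold change -0.83 to 0.64) and Scx (-0.30 to 0.40); the cause was not tested. Every member other than Twist2 and Scx kept its direction in every alternative, Thy1 and Ly6a among them. Twist2 and Scx rest on the fewest reads of the members, 142 to 533 per sample.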

Other observations

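Within the progenitor and stromal list, 4 of the 30 tested genes had an edgeR adjusted p under 0.1, 2 higher and 2 lower in the mutants, beside 1.52% of all tested genes higher and 0.496% lower. Besides Mcam and Dpt these were Nes and Ctsk, which were picked here after their values were seen. Nes (nestin), an intermediate filament gene of perivascular and neural progenitors, had an RPKM of 5.67 and 7.87 in the controls and of 19.7 and 19.0 in the mutants, and its log2 fold change was 1.48 (SE 0.170, edgeR adjusted p = 0.0739). Ctsk (cathepsin K), a collagen-degrading protease gene that is also used as a marker of periosteal progenitors, had an RPKM of 77.2 and 61.0 in the controls and of 38.3 and 34.8 in the mutants, and its log2 fold change was -0.96 (SE 0.171, edgeR adjusted p = 0.0885). In the same list the surface marker Cd44 had an RPKM of 27.5 and 60.9 in the controls and of 88.3 and 109 in the mutants (log2 fold change 1.12, SE 0.332, edgeR adjusted p = 0.185), and the homeobox genes Meox1 and Meox2, which pattern the sclerotome, had log2 fold changes of -1.29 and -1.40 (edgeR adjusted p = 0.126 and 0.149). These genes were likewise picked after their values were seen.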
